A study of Homo sapiens with 6 samples.

Results

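The UGT2B genes of LNCaP prostate cancer cells were compared between the parental line and an enzalutamide-resistant derivative. The members were the 7 genes of the deposited count table with the names UGT2B4, UGT2B7, UGT2B10, UGT2B11, UGT2B15, UGT2B17 and UGT2B28, out of 35554 genes in the table. LNCaP is an established line grown from a lymph node metastasis of human prostate cancer, and it depends on androgens. Enzalutamide is a drug that blocks the action of androgens on their receptor. RNA was sequenced from 3 flasks of parental cells and from 3 flasks of the resistant line, called LNCaP-enzaR. The study's methods state that LNCaP-enzaR was derived from its parent by growth in enzalutamide and was afterwards kept on less of the drug. It is 1 derived line, and the labels do not state whether the drug was in the medium when the flasks were harvested. The p-values below therefore measure the spread between flasks of 1 line each.

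UGT2B enzymes sit in the membrane of the endoplasmic reticulum and transfer glucuronic acid from UDP-glucuronic acid to small lipophilic molecules, which makes them soluble in water and ready for export. In the prostate this reaction removes dihydrotestosterone, testosterone and their metabolites, and UGT2B15 and UGT2B17 are the members best known for it. In LNCaP cells both are known to be repressed by androgens. UGT2B28 also accepts androgens. UGT2B7 has a broad range that includes opioids and estrogens, UGT2B4 acts on bile acids, UGT2B10 is known for conjugating nicotine and other amines, and little activity has been described for UGT2B11.

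The 7 genes lie in 1 cluster of 0.99 Mb on chromosome 4 (GRCh38), and their sequences resemble each other closely. The first 90 coding bases are given because they show how little separates the copies from which the reads were counted. They were read from the GRCh38 genome at the start codons of the GENCODE v44 annotation. Capitals mark bases that differ from UGT2B17 in an alignment whose gaps are not drawn. UGT2B10 lacks a few bases of UGT2B17 in this stretch, so the rest of its line is shifted.
UGT2B17: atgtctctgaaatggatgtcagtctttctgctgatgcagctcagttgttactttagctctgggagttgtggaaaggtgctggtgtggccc
UGT2B15: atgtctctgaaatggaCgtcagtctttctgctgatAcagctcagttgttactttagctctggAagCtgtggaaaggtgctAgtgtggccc
UGT2B4: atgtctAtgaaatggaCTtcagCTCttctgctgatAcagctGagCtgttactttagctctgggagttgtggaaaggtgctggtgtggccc
UGT2B7: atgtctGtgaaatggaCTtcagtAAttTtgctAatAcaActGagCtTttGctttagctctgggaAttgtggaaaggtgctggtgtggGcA
UGT2B10: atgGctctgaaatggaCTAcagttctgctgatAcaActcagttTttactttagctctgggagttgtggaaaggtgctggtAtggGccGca
UGT2B11: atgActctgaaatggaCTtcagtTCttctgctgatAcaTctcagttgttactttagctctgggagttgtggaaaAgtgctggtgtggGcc
UGT2B28: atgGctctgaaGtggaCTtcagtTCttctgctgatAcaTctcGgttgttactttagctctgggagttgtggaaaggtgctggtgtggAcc

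Within this stretch UGT2B15 differed from UGT2B17 at 5 bases and UGT2B7 at 16. Over the whole coding sequence UGT2B15 and UGT2B17 were 96.5% identical, with 55 differing positions and a longest identical run of 199 bases. UGT2B11 and UGT2B28 formed the closest pair, at 97.0% with 47 differing positions. UGT2B10 was 94.8% identical to UGT2B11 and 94.2% to UGT2B28, whereas UGT2B15 and UGT2B17 were 83.7% to 85.4% identical to the other 5 members. UGT2B4 and UGT2B7 stood between, at 89.1% to 92.7% identity with each other and with UGT2B10, UGT2B11 and UGT2B28.

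**Figure D1:**
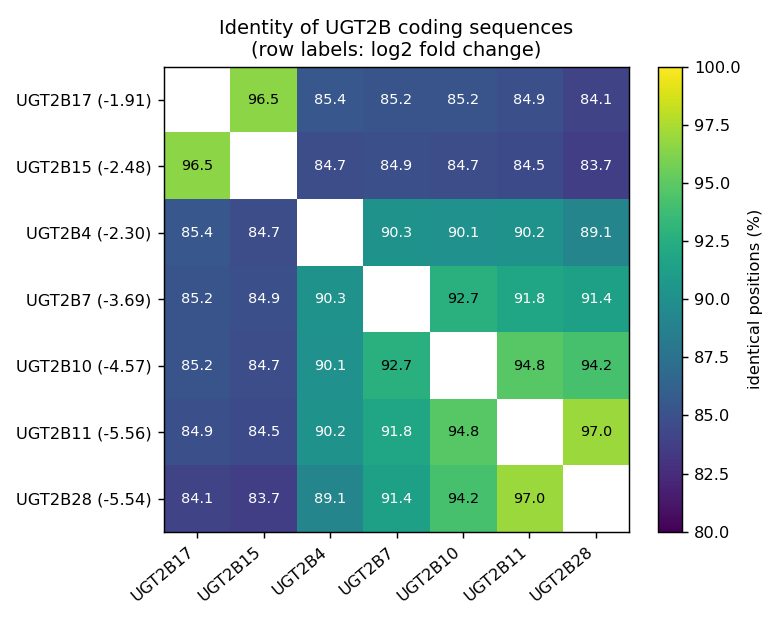
Percentage of identical positions between the coding sequences of each pair of UGT2B genes (color scale from 80 to 100%). Each row carries the log2 fold change of its gene, and the brightest cells are the pairs UGT2B11 with UGT2B28 (97.0%) and UGT2B15 with UGT2B17 (96.5%).

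Whether reads could be told apart depends on windows of read length. The reads were 150 bases long. Windows of that length were taken along the annotation's canonical transcript of each member. Of these, 4.74% in UGT2B15 and 4.03% in UGT2B17 occurred unchanged in the other of the pair, 94 windows in each. No window of 150 bases was shared for UGT2B4, UGT2B7, UGT2B10 or UGT2B28. UGT2B11 shared 7.92% of its windows, most of them with the long noncoding RNA gene RP11-704M14.1, which lies on the opposite strand and covers 18.5% of the exonic bases of UGT2B11. The comparison used the reference sequence and exact matches only, so a read with sequencing errors or with a base peculiar to LNCaP could still be placed on a neighboring copy. How the counting treated strand and reads that match several places is not given in the sources used here, and the counts of all members are uncertain to that extent.

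Libraries held 77759122 to 98616465 counts. Of these, the 7 members took 0.0213% ± 0.0011 in parental cells but 0.00388% ± 0.000479 in LNCaP-enzaR (SD, 3 libraries each). The share of mitochondrial transcripts moved with the groups, from 6.72% to 7.06% of the counts in parental libraries to 14.75% to 15.5% in LNCaP-enzaR, and its part in the results was not tested. Correlations of log2 CPM (counts per 1000000 after scaling) were 0.99 to 0.992 between libraries of 1 line and 0.921 to 0.926 between the lines. By these correlations no library stood apart from its group, but leaving out LNCaP-enzaR replicate 1 changed several p-values strongly, as given below. Luminal prostate markers were abundant in both lines, with a summed level of 4252 to 4366 CPM in parental and 2817 to 3108 CPM in LNCaP-enzaR libraries. Their 6 genes were all tested, and 4 were lower and 1 higher past the threshold defined below, against 19.5% and 23.3% of all genes tested. The basal markers KRT5 and TP63 and the leukocyte markers CD3E and LYZ were at 0 in at least 5 of the 6 libraries. The remaining basal marker, KRT14, had 129, 84 and 134 counts in parental cells and 67, 50 and 43 in LNCaP-enzaR. It was lower past that threshold (log2 fold change −1.18). The remaining leukocyte marker, PTPRC, had 4, 2 and 3 counts in parental cells and 2, 3 and 5 in LNCaP-enzaR. The basal list summed to 0.923 to 1.71 CPM in parental and 0.433 to 0.8 CPM in LNCaP-enzaR, and the leukocyte list to 0.022 to 0.0756 and 0.0232 to 0.0605 CPM.

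All comparisons set LNCaP-enzaR against parental cells with edgeR's quasi-likelihood test over 19711 genes, and adjusted p-values are Benjamini-Hochberg values over those genes. The limits of the study's methods were applied, an adjusted p of 0.05 or less together with a change of 1.5-fold or more, and a gene that met both is called past the threshold. Each of the 7 members was lower in LNCaP-enzaR past that threshold, by 3.75-fold for UGT2B17 up to 47.0-fold for UGT2B11. Among all genes tested 42.7% were past the threshold in either direction and 19.5% in this one. The parental values lay above the 3 LNCaP-enzaR values for each member, and the groups did not overlap for 70.6% of all genes tested. The median log2 fold change was −3.69 over the members and 0.01 over all genes tested. The first of these is the fitted value of UGT2B7, which depends on the prior count because its LNCaP-enzaR libraries were nearly empty, and the median of the other 6 members was −3.53. All 7 passed the filter on low counts, but 3 of them (UGT2B4, UGT2B7 and UGT2B28) did so only through the parental libraries, where they are high, so the count and the median are a description. In bulk RNA, fewer cells with a transcript and less transcript per cell cannot be told apart.

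UGT2B17 (ENSG00000197888.3, chr4:68537173-68576413, minus strand), the main testosterone- and dihydrotestosterone-conjugating enzyme of the family, had 8390, 8733 and 6638 counts in parental replicates 1 to 3 and 1872, 2109 and 2646 counts in LNCaP-enzaR. As CPM these were 90.6, 96.0 and 84.5 against 21.7, 23.9 and 26.7. The lowest parental value was thus far above the highest LNCaP-enzaR value. The mean fell from 90.4 ± 5.76 to 24.1 ± 2.49 CPM (SD, n = 3). The log2 fold change was −1.91 ± 0.080 (SE, edgeR adjusted p = 5.21e-11). It kept the most counts of the 7 members in LNCaP-enzaR and had the smallest estimated change.

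UGT2B15 (ENSG00000196620.10, chr4:68646597-68670652, minus strand), which conjugates dihydrotestosterone and androstanediol, had 7594, 7145 and 5836 counts in parental cells and 1084, 1252 and 1530 in LNCaP-enzaR. These corresponded to 82.0, 78.5 and 74.3 CPM against 12.6, 14.2 and 15.4 CPM. The groups were again well separated. The mean fell from 78.3 ± 3.88 to 14.1 ± 1.43 CPM. On the log2 scale this was −2.48 ± 0.080 (SE, edgeR adjusted p = 3.86e-12). When the counts of UGT2B15 and UGT2B17 were summed before the fit, the log2 fold change was −2.14 (edgeR adjusted p = 9.04e-12).

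The estimates for the pair differed. The ratio of UGT2B17 to UGT2B15 counts within a library does not depend on scaling. It was 1.10, 1.22 and 1.14 in parental cells and 1.73, 1.68 and 1.73 in LNCaP-enzaR, with no overlap. On the log2 scale the difference was 0.57 (2-sided exact permutation test, p = 0.10, the smallest p that 3 against 3 libraries allow).

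UGT2B11 (ENSG00000213759.10, chr4:69199951-69214748, minus strand) had 2772, 2466 and 2046 counts in parental cells and 45, 56 and 60 in LNCaP-enzaR. The corresponding levels were 29.9, 27.1 and 26.0 CPM and 0.521, 0.634 and 0.605 CPM. The mean fell from 27.7 ± 2.02 to 0.587 ± 0.0584 CPM. The log2 change was −5.56 ± 0.114 (SE, edgeR adjusted p = 4.53e-14). The change thus rests on 7284 counts in the parental libraries against 161 in those of LNCaP-enzaR. The overlapping antisense gene RP11-704M14.1 had 27, 18 and 15 counts in parental cells and 0, 1 and 0 in LNCaP-enzaR, and without strand information reads of the shared bases cannot be assigned to either gene.

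UGT2B28 (ENSG00000135226.18, chr4:69280475-69295050, plus strand), whose enzyme accepts androgens and estrogens, had 804, 843 and 722 counts in parental cells and 18, 7 and 28 in LNCaP-enzaR. Its mean fell from 9.05 ± 0.316 to 0.19 ± 0.103 CPM. As a log2 fold change this was −5.54 ± 0.219 (SE, edgeR adjusted p = 2.84e-11). The parental libraries were close together, while those of LNCaP-enzaR spread widely around a low level. Its ratio to UGT2B11 was 0.29, 0.342 and 0.353 in parental cells and 0.4, 0.125 and 0.467 in LNCaP-enzaR. Here the groups overlapped, and the log2 difference of −0.19 was within the spread between replicates (2-sided exact permutation test, p = 1.00). It turned to 0.40 without LNCaP-enzaR replicate 2, the library with 7 counts.

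UGT2B10 (ENSG00000109181.12, chr4:68815994-68832023, plus strand) had 488, 475 and 302 counts in parental cells and 11, 23 and 21 in LNCaP-enzaR. The mean fell from 4.78 ± 0.81 to 0.2 ± 0.0673 CPM. On the log2 scale this was −4.57 ± 0.233 (SE, edgeR adjusted p = 4.26e-10). The highest LNCaP-enzaR library lay more than 10-fold below the lowest parental one, with 0.26 against 3.84 CPM.

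The last 2 members were scarce in both lines. UGT2B4 (ENSG00000156096.14, chr4:69480165-69526014, minus strand) had 34, 18 and 46 counts in parental cells and 5, 7 and 9 in LNCaP-enzaR. Its mean fell from 0.384 ± 0.194 to 0.076 ± 0.0166 CPM. The log2 change amounted to −2.30 ± 0.533 (SE, edgeR adjusted p = 0.00159). UGT2B7 (ENSG00000171234.14, chr4:69051363-69112987, plus strand) had 17, 25 and 12 counts in parental cells and 0, 2 and 2 in LNCaP-enzaR. No LNCaP-enzaR library exceeded 3 counts, which correspond to 0.0302 to 0.0382 CPM, so its fold change is given as a ratio of summed counts. That ratio was 14.1, with 54 against 4 counts and an exact 95% interval of 5.2 to 53.6 for counting error only (edgeR adjusted p = 0.000741). Both genes were lower in each LNCaP-enzaR library than in each parental library, and neither exceeded 0.276% of the family total described below in any library.

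**Figure D2:**
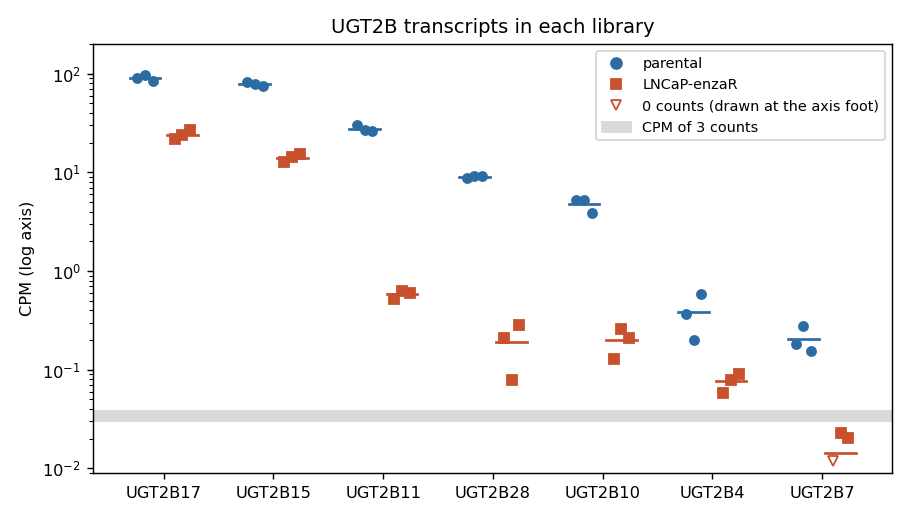
CPM of each UGT2B gene in the 3 parental (circles) and 3 LNCaP-enzaR libraries (squares) on a log axis, with lines at the group means. The gray band is the CPM of 3 counts, the open triangle is the library with 0 counts, and the groups do not overlap for any of the 7 genes.

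The members fell into a graded order of change. By log2 fold change UGT2B11 and UGT2B28 (−5.56 and −5.54) were within their SE of each other, followed by UGT2B10 (−4.57). UGT2B15 (−2.48) and UGT2B17 (−1.91) stood apart from each other by more than their SE, and the wide SE of UGT2B4 (−2.30 ± 0.533) spanned them both. UGT2B7, at −3.69 ± 0.776, lay between those and UGT2B10 by its fitted value, but its SE range overlapped that of UGT2B10. UGT2B11 had rank 118 and UGT2B17 rank 952 from the lowest of the 19711 fold changes, so that 0.599% and 4.83% of the genes tested fell by as much or more. UGT2B10, UGT2B11 and UGT2B28, which are 94.2% to 97.0% identical to each other, were the 3 members with the most negative fitted values. The counting interval of UGT2B7, 5.2 to 53.6-fold, covers the changes of all 3. It also covers the 5.57-fold change of UGT2B15, so the place of UGT2B7 in the order is not settled on either side. UGT2B10, UGT2B11 and UGT2B28 shared windows of 75 bases with each other but none of 150. Reads with mismatches could still be misplaced between them, so they were not taken as independent measurements.

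**Figure D3:**
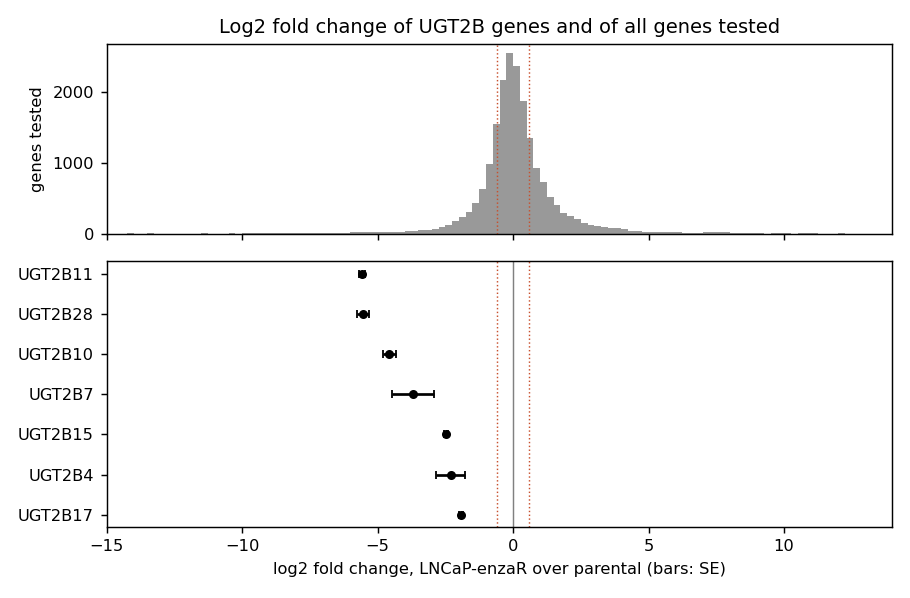
Log2 fold change of LNCaP-enzaR over parental for all 19711 genes tested (upper histogram, bins of 0.25) and for the 7 UGT2B genes (lower points, bars are SE). Dotted lines mark a 1.5-fold change in either direction, and the members lie between −1.91 and −5.56.

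Levels between genes were compared as CPM per kilobase of exon. In parental cells UGT2B15 stood at 36.7 ± 1.82 and UGT2B17 at 35.1 ± 2.24 CPM per kilobase, a difference within the spread between replicates. UGT2B11 followed at 11.8 ± 0.856, UGT2B28 at 4.87 ± 0.17 and UGT2B10 at 1.73 ± 0.294 CPM per kilobase, each apart from its neighbors by more than the spread. UGT2B4 at 0.154 ± 0.0781 and UGT2B7 at 0.0902 ± 0.0281 CPM per kilobase could not be separated. In LNCaP-enzaR the order began with UGT2B17 at 9.36 ± 0.969 and UGT2B15 at 6.59 ± 0.671 CPM per kilobase. UGT2B11, at 0.249 ± 0.0248, was the only other member above 0.2 CPM per kilobase. UGT2B28 at 0.102 ± 0.0553, UGT2B10 at 0.0725 ± 0.0244 and UGT2B4 at 0.0305 ± 0.00668 CPM per kilobase followed, and of these UGT2B28 and UGT2B10 were within their spread. UGT2B7 came last at 0.00631 ± 0.00549 CPM per kilobase.

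Summed over the 7 genes, the level was 93.2, 92.7 and 85.4 CPM per kilobase in parental cells and 14.7, 16.4 and 18.1 in LNCaP-enzaR. The family total was thus 5.51-fold lower, at 16.4 ± 1.7 against 90.4 ± 4.4 CPM per kilobase. Its makeup also differed. UGT2B17 held 38.9% ± 1.26 of the total in parental cells and 57.1% ± 0.318 in LNCaP-enzaR, while the share of UGT2B15 was 40.6% ± 0.795 and 40.1% ± 0.376. UGT2B11 went from 13% ± 0.615 to 1.52% ± 0.115 and UGT2B28 from 5.40% ± 0.39 to 0.621% ± 0.314 of the total. UGT2B17 and UGT2B15 together thus formed nearly all UGT2B transcript measured in LNCaP-enzaR.

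**Figure D4:**
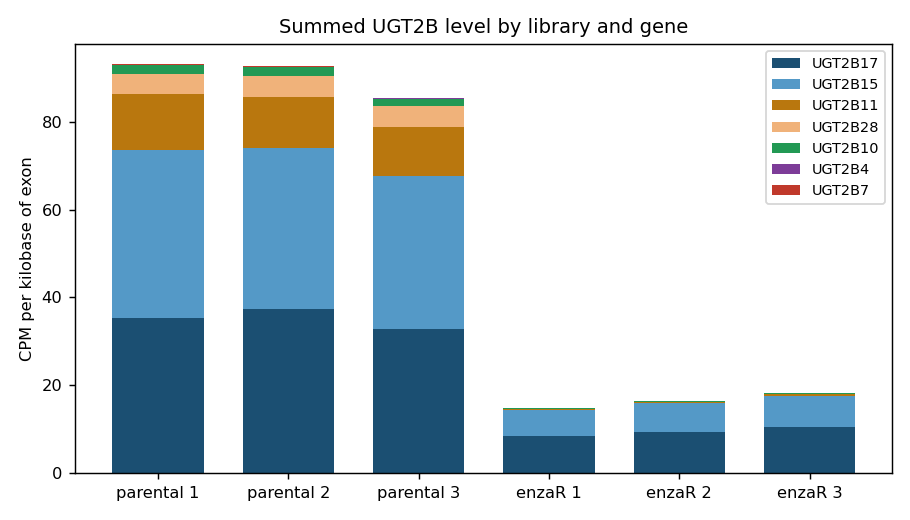
Summed level of the 7 UGT2B genes in each library, in CPM per kilobase of exon, stacked by gene. Parental bars reach 85.4 to 93.2 and LNCaP-enzaR bars 14.7 to 18.1, with UGT2B17 and UGT2B15 forming nearly all of the latter.

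The rest of the cluster was examined to see whether low values were particular to the 7 genes. The table holds 7 other UGT2 genes and pseudogenes on this chromosome, and none reached a mean of 1 CPM. UGT2A1 and UGT2A3, which are further enzymes, had 0 to 9 counts in parental libraries and 0 in each LNCaP-enzaR library. The pseudogene UGT2B24P, chosen after its values were seen, had 29, 33 and 36 counts in parental cells and 0 in each LNCaP-enzaR library, which makes it at least 11.5-fold lower against 3 counts per library. UGT2B25P and UGT2B27P had 7 to 15 counts in parental libraries and 0 in LNCaP-enzaR, while UGT2B26P and UGT2B29P had 0 to 3 counts in all libraries. Among the genes searched, UGT2B24P shared most windows of 75 bases with UGT2B28 and UGT2B27P with UGT2B10. Neither shared a window of 150 bases with a member, while UGT2B25P shared 1.38% of those of UGT2B11. Reads with mismatches could still be misplaced, so pseudogene and member reads cannot be told apart with certainty.

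Apart from the members, the cluster and 1 Mb on either side of it held 47 entries, 14 of them inside the cluster. These include the 7 other UGT2 entries described above. Of the 47, 11 were tested, and 5 were lower and 0 higher past the threshold, against 19.5% and 23.3% of all genes tested. Of the 5, RP11-704M14.1, UGT2B24P and AMTN passed the filter on low counts only through the parental libraries, where they are high. By edgeR's test 2 of the 5 lay inside the cluster, RP11-704M14.1 and UGT2B24P. The other 3 were TMPRSS11E, ODAM and AMTN. Of the neighbors with a mean of at least 5 CPM, ODAM, which encodes a secreted protein of tooth-forming cells, fell from 8.38 ± 1.05 to 3.51 ± 0.348 CPM (log2 fold change −1.26, SE 0.120, edgeR adjusted p = 3.88e-07). The broadly expressed genes on the other side did not pass the threshold, with log2 fold changes of −0.27 for the centromere protein gene CENPC, −0.57 for the ubiquitin-activating enzyme gene UBA6, 0.20 for UBA6-AS1 and −0.28 for the RNA-binding protein gene YTHDC1. The serine protease gene TMPRSS11E, chosen after its values were seen, starts 90 kb before UGT2B17 and fell from 4.02 ± 0.387 to 0.421 ± 0.0578 CPM (log2 fold change −3.24, SE 0.179, edgeR adjusted p = 9.53e-10). AMTN, also chosen after its values were seen, fell from 0.946 ± 0.231 to 0.107 ± 0.0483 CPM (log2 fold change −3.10). The 9 tested neighbors outside the cluster had a median log2 fold change of −0.57.

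**Figure D5:**
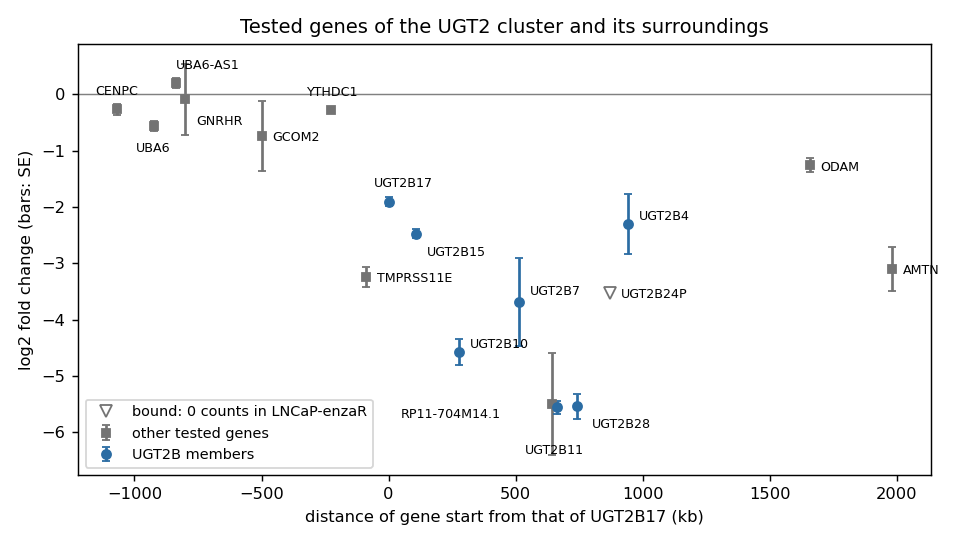
Log2 fold change (bars are SE) of the UGT2B members and of the other tested genes within 1 Mb of the cluster, against the distance of their starts from that of UGT2B17 in kb. The triangle for UGT2B24P is a bound because no LNCaP-enzaR library held a count, and YTHDC1, at −227 kb, stands at −0.28 while TMPRSS11E, at −90 kb, stands at −3.24.

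RefSeq promoter windows were given for 4 of the 7 members (UGT2B7, UGT2B10, UGT2B11 and UGT2B15), and UGT2B4, UGT2B17 and UGT2B28 had no entry. The 3 windows that hold AGGTCA, a hexamer recognized by many nuclear receptors, are shown so that its place can be compared between genes. They are the 250 bases before each RefSeq start, with build GRCh38.p14, in the direction of the gene, and capitals mark the hexamer.
UGT2B15 (chr4:68670653-68670902, minus strand): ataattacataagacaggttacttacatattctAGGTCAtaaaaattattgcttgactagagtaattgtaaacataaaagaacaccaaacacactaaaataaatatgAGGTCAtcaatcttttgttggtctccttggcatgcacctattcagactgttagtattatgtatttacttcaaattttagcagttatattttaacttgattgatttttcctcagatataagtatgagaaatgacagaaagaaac
UGT2B11 (chr4:69214749-69214998, minus strand): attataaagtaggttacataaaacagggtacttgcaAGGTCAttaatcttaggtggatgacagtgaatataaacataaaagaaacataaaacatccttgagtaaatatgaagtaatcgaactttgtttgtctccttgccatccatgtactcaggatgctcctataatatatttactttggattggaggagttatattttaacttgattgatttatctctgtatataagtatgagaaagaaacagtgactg
UGT2B10 (chr4:68815744-68815993, plus strand): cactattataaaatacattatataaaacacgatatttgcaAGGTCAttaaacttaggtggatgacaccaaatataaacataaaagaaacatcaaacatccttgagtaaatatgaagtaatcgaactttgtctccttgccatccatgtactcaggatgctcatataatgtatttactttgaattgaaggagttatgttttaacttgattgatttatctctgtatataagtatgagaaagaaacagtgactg

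The hexamer AGGTCA was present in 3 of the 4 member windows, with 2 matches in UGT2B15, and in 13.8% of 35116 promoters of 300 bases (250 before and 50 after the start, both strands). The windows of UGT2B10 and UGT2B11 were 90.1% identical and the other pairs 60.4% to 69.5%, so these are not independent sequences. The hexamer AGAACA of androgen response elements was present only in that of UGT2B15 among the 4, and in 14.8% of all promoters. The forkhead motif TGTTTAC was likewise present only in UGT2B15 among the 4 and in 3.42% of all promoters, and the C/EBP motif TTGCNNAA in 3 of the 4 and in 10.5%. A match is a description of letters and does not show that a factor bound there.

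Genes for factors known to act on UGT2B promoters were described from a list of 13. Of these 9 were tested, 3 were higher and 2 lower past the threshold (23.3% and 19.5% of all genes tested), and their median log2 fold change was −0.05. The liver and fat factor gene CEBPA rose from 21.9 ± 1.38 to 89.6 ± 6.02 CPM (log2 fold change 2.03, SE 0.072, edgeR adjusted p = 9.42e-12). NFE2L2, the gene of the oxidative stress factor NRF2, fell from 88.3 ± 1.21 to 36.6 ± 2.5 CPM (log2 fold change −1.27, SE 0.064, edgeR adjusted p = 3.45e-10). The other 3 past the threshold, named after their values were seen, were the estrogen receptor gene ESR1, AHR and NR1I3. AHR (log2 fold change 0.59) did not pass with library totals (0.55) and in 4 of the fits that left out 1 library, and NR1I3 (−0.73, with groups that overlapped) did not pass in 8 of 16 alternatives, DESeq2 among them (adjusted p = 0.0529). ESR1 had 0 counts in each parental library and 77, 92 and 161 in LNCaP-enzaR, at least 34.3-fold higher against 3 counts per library. FOXA1, a forkhead factor gene also named after its values were seen, was at 439 ± 1.7 and 424 ± 8.28 CPM (log2 fold change −0.05, SE 0.048, and 0.05 with upper-quartile scaling) and did not pass the threshold.

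Genes known as androgen-induced were described as well. Androgen levels and receptor activity were not measured. Of 8 such genes, 6 were lower and 0 higher past the threshold, against 19.5% and 23.3% of all genes tested. The median log2 fold change of the 8 was −2.12. KLK3, which encodes prostate-specific antigen, fell from 1190 ± 42.1 to 141 ± 9.26 CPM (log2 fold change −3.08, SE 0.063, edgeR adjusted p = 4.38e-14), and the transporter gene SLC45A3 had a log2 fold change of −4.73. KLK4 and TMPRSS2, the other two and named after their values were seen, were at log2 fold changes of 0.27 and 0.16. The members known as androgen-repressed and 6 of the 8 genes known as androgen-induced were lower in LNCaP-enzaR, and the cause was not tested.

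The supply of UDP-glucuronic acid was described by 6 genes, of which 5 were tested. Past the threshold 2 were higher and 1 lower, against 23.3% and 19.5% of all genes tested. UGDH, the dehydrogenase that makes UDP-glucuronic acid, fell from 154 ± 8.25 to 52.0 ± 3.54 CPM (log2 fold change −1.57, SE 0.066, edgeR adjusted p = 5.44e-11). The genes of the preceding steps were higher. PGM1, a phosphoglucomutase, rose from 60.7 ± 3.62 to 120 ± 3.26 CPM (log2 fold change 0.99, SE 0.060, edgeR adjusted p = 2.92e-09), and UGP2, which makes UDP-glucose and was named after its values were seen, had a log2 fold change of 1.04. Of 6 genes for the export or cleavage of glucuronides, 5 were tested, and 1 was lower past the threshold, against 19.5% of all genes tested. This was the exporter gene ABCC4, which fell from 166 ± 3.96 to 56.4 ± 3.86 CPM (log2 fold change −1.56, SE 0.062, edgeR adjusted p = 3.04e-11). ABCC1 and the glucuronidase gene GUSB, the latter named after its values were seen, were at log2 fold changes of −0.21 and −0.12 and did not pass.

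Enzymes that make or consume the androgen substrates were described by 11 genes, of which 8 were tested. Past the threshold 5 were higher and 1 was lower, against 23.3% and 19.5% of all genes tested. The median log2 fold change of the 8 was 0.73. AKR1C2, which reduces dihydrotestosterone to androstanediol, rose from 0.264 ± 0.131 to 5.11 ± 0.62 CPM (log2 fold change 4.24, SE 0.245, edgeR adjusted p = 1.59e-09), and AKR1C1 had a log2 fold change of 5.91. The AKR1C genes are near-identical copies whose reads may be split between them. Of genes named after their values were seen, the reductase gene SRD5A1, which makes dihydrotestosterone, had a log2 fold change of 0.67 and the dehydrogenase gene HSD17B11 one of −1.53. Sulfation, the other main route of steroid conjugation, was described by 8 genes, of which 6 were tested. Of these, 3 were higher and 1 was lower past the threshold (median 0.71). The shares over all genes tested are those just given. SULT1A1, a sulfotransferase gene with close copies, rose from 9.91 ± 0.256 to 20.0 ± 1.45 CPM (log2 fold change 1.01, SE 0.080, edgeR adjusted p = 4.76e-08), and PAPSS1, which makes the sulfate donor, had a log2 fold change of 0.68. The sulfate transporter gene SLC26A2, named after its values were seen, was the lower one (−0.68) and did not pass the fold limit with upper-quartile scaling (−0.58).

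UGT2B genes are foremost genes of the liver, and 6 liver markers were therefore set beside them. The list summed to 10.8 to 13 CPM in parental and 96.2 to 119 CPM in LNCaP-enzaR libraries. TTR, the transthyretin gene, took most of it in LNCaP-enzaR and ALB, the albumin gene, in parental cells. TTR rose from 3.59 ± 0.239 to 103 ± 13.2 CPM (log2 fold change 4.84), and ALB fell from 7.92 ± 0.639 to 0.691 ± 0.128 CPM (log2 fold change −3.51). Of the 4 tested, 2 were higher and 1 lower past the threshold, against 23.3% and 19.5% of all genes tested. The fibrinogen gene FGB was at 0 in at least 5 of the 6 libraries. The 3 fibroblast markers, of which COL1A2 was not analysed here, summed to 13.7 to 16.7 and 5.02 to 5.90 CPM, and of the 2 tested 1 was lower past the threshold (COL1A1, −1.64). The part of these lists in the UGT2B values was not tested.

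For the 3 members whose mean reached 5 CPM over the 6 libraries, the genes with the most similar profile were sought among 10766 genes of at least that level outside the UGT2 family. Likeness was the root mean square distance of centred log2 CPM over the 6 libraries, so it mostly reflects a similar difference between the lines. Nearest to UGT2B17 were the kinesin gene KIF24 (distance 0.027), the replication licensing gene CDC6 (0.043) and the genome maintenance gene ATAD5 (0.060). Nearest to UGT2B15 were the malic enzyme gene ME1 (0.032), KLHL1 (0.047) and the spindle checkpoint kinase gene TTK (0.050). Nearest to UGT2B11 were the fatty acid elongase gene ELOVL7 (0.067), ASRGL1 (0.092) and AGR2 (0.112), whose log2 fold changes were −5.43, −5.48 and −5.53. These distances are a description over libraries that fall into 2 groups of 3.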

How the data were processed

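RNA was measured in 3 flasks of parental LNCaP and 3 of LNCaP-enzaR cells, grouped by their titles. Per the labels and methods, the authors prepared TruSeq mRNA libraries, sequenced paired-end reads of 150 bases, trimmed them with Cutadapt, aligned them to GRCh38 with STAR and counted them per gene with featureCounts. The deposited values are raw counts per gene, not normalized. Counting options are not given in the sources used here.

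Analysis used edgeR 4.0.16 under R 4.3.3, with filterByExpr (19711 genes kept, 99.96% of counts), TMM scaling and a robust quasi-likelihood fit that had no covariates. The study's methods name DESeq2, run here as an alternative (version 1.42.0). CPM are counts per 1000000 of the TMM-scaled library, given as mean ± SD. The SE of a log2 fold change was calculated back as its absolute value divided by the square root of edgeR's F statistic. Intervals and limits based on counts cover counting error only, since amplified reads are not independent molecules. The fit was checked on simulated counts with 200 changed genes, far fewer than the calls in these data. It recovered 96% of the 2-fold and 99% of the 4-fold changes, with 7 false calls. The changed genes all had means above 1 CPM, so the check does not cover UGT2B4 and UGT2B7. Depth was 77759122 to 98616465 counts, which makes 3 counts worth 0.0302 to 0.0382 CPM.

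Coordinates are those of the deposited table. Of its genes, 99.8% were found in GENCODE v44, 91.4% of those at the same position, including all 7 members. That annotation gave exons, lengths and coding sequences, and RefSeq the promoters.

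Genes eligible for naming were all 7 members and other UGT2 entries past the threshold whose mean reached 1 CPM. The 2 genes of each list with the smallest p and neighbors whose mean reached 5 CPM were also eligible. For each member of that level the 3 genes of nearest profile were added. The 15 other genes that carry a call or fold change were named after their values were seen. The members and lists were chosen with earlier results of these data known, and 1 promoter motif and 2 listed genes are not reported here. Alternatives were DESeq2, RLE, library totals, upper-quartile scaling, other filters, protein-coding genes only, a replicate block, leaving out each library, summed copies, other fold limits, coding length and a shorter window. Same-numbered flasks did not deviate together (correlations of −0.0652, −0.00041 and −0.0507).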

Additional observations from a re-analysis of the deposited data

How the results depend on the processing

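Each member kept its direction and its call under every alternative that could test it, 13 to 15 for each gene. The log2 fold changes ranged from −5.96 to −5.18 for UGT2B28, −5.61 to −5.45 for UGT2B11, −4.79 to −4.33 for UGT2B10, −4.09 to −3.17 for UGT2B7, −2.62 to −1.88 for UGT2B4, −2.54 to −2.38 for UGT2B15 and −1.98 to −1.81 for UGT2B17. With at least 10 counts in every library, UGT2B4, UGT2B7 and UGT2B28 were not tested. Summing the rows of all UGT2B genes and pseudogenes gave −2.43, and summing UGT2B11 with UGT2B28 gave −5.56. With the replicate number as a replicate block, UGT2B17 was at −1.91 and UGT2B11 at −5.55, 8212 genes were past the threshold, and no call of a member changed, whereas NR1I3 lost its call. Upper-quartile scaling moved the median log2 fold change of all genes by 0.10, and 60.9% of the calls were then higher in LNCaP-enzaR, in place of 54.5%.

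Genes past the threshold numbered 13074 with no minimum fold and 5561 with a fold of at least 2. Of the UGT1, UGT3 and UGT8 genes, 2 passed without a filter, and 1 to 2 when 1 library was left out. Leaving out 1 library gave 1 to 2 of the export and cleavage genes and 3 to 5 of the regulators (3 without parental replicate 2 or LNCaP-enzaR replicate 2). Of the neighbors 9 passed without a filter, 2 where every library had to hold 10 counts, 3 among protein-coding genes, and 5 to 8 when 1 library was left out, the highest without LNCaP-enzaR replicate 3. The cause was not tested. UBA6 passed the fold limit under library totals (−0.61) and without parental replicate 3 or LNCaP-enzaR replicate 2 or 3 (−0.62, −0.64 and −0.61). Among the 48 further genes picked by the naming rules or after their values were seen, 43 had the same direction and call in every alternative that tested them. Not all of the 48 are named above or given with a fold change. The other 5 were UBA6, AHR (0.55 with library totals), NR1I3, SLC26A2 (−0.58 with upper-quartile scaling) and FOXA1, which turned from −0.05 to 0.05 with upper-quartile scaling without a call in either. NR1I3 did not pass under DESeq2 (−0.73), upper-quartile scaling (−0.63), protein-coding genes only (−0.71), the replicate block (−0.73) and 4 of the fits without 1 library. The ratio of UGT2B28 to UGT2B11 ranged from −0.55 to 0.40 with 1 library left out.

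Alternatives on lists, neighbors, genes named after their values were seen, ratios and coding length were added after the data were seen. Per kilobase of coding sequence, in place of exon length, parental levels were 56.7 CPM for UGT2B17, 49.1 for UGT2B15, 17.4 for UGT2B11, 5.69 for UGT2B28, 3.01 for UGT2B10, 0.242 for UGT2B4 and 0.128 for UGT2B7, so that UGT2B17 stood above UGT2B15. With windows of 75 bases, shared sequence was 27.6% for UGT2B11, 17.9% for UGT2B15, 15.3% for UGT2B17, 15% for UGT2B28, 11.9% for UGT2B10 and 2.26% for UGT2B7, by the shorter window's construction. Depth limited UGT2B7 and UGT2B4, whose LNCaP-enzaR libraries held 0 to 9 counts.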

Other observations

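The remaining UDP-glycosyltransferase genes were described by a list of 12, of which 8 were in the table and 1 was tested. UGT8, the ceramide galactosyltransferase of myelin lipid synthesis, rose from 1.89 ± 0.295 to 10.7 ± 0.77 CPM (log2 fold change 2.49, SE 0.124, edgeR adjusted p = 3.19e-10), with 206, 162 and 131 counts in parental cells and 867, 924 and 1145 in LNCaP-enzaR. The 5 UGT1A genes in the table had 0 to 11 counts in each library and the 2 UGT3A genes 0 to 12, and none of these was tested. The UGT1A genes share their last exons, so their counts cannot be assigned with certainty to one of them. Among the 3 UGT2A genes of another list, 2 were in the table and 0 were tested by edgeR. Their counts were 9, 0 and 1 for UGT2A3 and 0, 0 and 1 for UGT2A1 in parental cells and 0 in LNCaP-enzaR.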
